A study of Homo sapiens with 43 samples.

Results

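Mitochondrial ribosomal proteins are encoded in the nucleus, made in the cytosol and imported into mitochondria, where they build the ribosome that translates the few proteins of the mitochondrial genome. Genes of this family were taken as the protein-coding genes whose symbol starts with MRPL or MRPS followed by a number, L for the large and S for the small subunit, which gave 77 of the 20037 protein-coding genes of the RefSeq table of GRCh38.p14. The rule uses the symbol and no measured value, though the family was chosen with earlier results of these data known. By textbook classification 29 encode large-subunit proteins with a bacterial relative, 22 large-subunit proteins found only in mitochondria, 16 small-subunit proteins with a bacterial relative and 10 small-subunit proteins found only in mitochondria. MRPS18A and MRPS30 carry small-subunit names and are placed in the large subunit.

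The study mapped proteins on chromatin by immunoprecipitation and sequencing (ChIP-seq) in SUDHL5 and KARPAS422 cells, both established human cell lines from diffuse large B-cell lymphoma. Cells received DMSO, the solvent, or 30 nM CDK-TCIP1, a bivalent molecule that binds the kinase CDK9 with one end and the B-cell repressor BCL6 with the other. CDK9 was mapped after 2 h by antibody ab239364 (SUDHL5) and by antibody CST2316S (SUDHL5 and KARPAS422), and each of these 3 sets has 2 DMSO and 2 treated samples. In SUDHL5 alone, RNA polymerase II phosphorylated on serine 5 (Ser5P) or serine 2 (Ser2P) of its tail had 2 samples, and total polymerase (Pol II) 3 samples, in each of 3 groups, which were cells treated for 2 h, cells treated for 4 h and cells given DMSO for 4 h. The 2 h and 4 h comparisons of the polymerase therefore share their DMSO samples, and the 2 h samples differ from them in time as well as in treatment. The labels do not state whether the replicates came from different cultures, and the p-values below therefore measure only the spread between these samples.

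CDK9 with a cyclin partner forms the elongation kinase P-TEFb, which phosphorylates paused polymerase and its pausing factors and lets transcription proceed into the gene. Ser5P polymerase is typical of the start of a gene and Ser2P of elongating polymerase. Mitoribosomal protein genes are housekeeping genes with short CpG-rich promoters, often placed head to head with another gene, and factors of the NRF1, ETS (GABPA) and YY1 families are known regulators of nuclear genes for mitochondrial proteins.

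Each of the 33 deposited lists gives the peaks called in 1 sample, and holds from 138 to 28951 peaks. A gene counted as occupied in a list when a peak overlapped the 1 kb on either side of either gene end by at least 1 bp. A gene was called gained if such a peak stood in all treated lists and in no list from DMSO, and lost in the opposite case, so only genes with no DMSO peak could be gained and only genes with a peak in every DMSO list could be lost. The lists of CDK9 were longer after CDK-TCIP1: 915 and 3508 peaks against 9262 and 11148 with ab239364, 1611 and 1264 against 10005 and 9761 with CST2316S in SUDHL5, and 6689 and 7804 against 14554 and 10297 in KARPAS422. The part of list length in the gains below was not tested beyond the equal-length counts given with them. As a check on the cell type, 6 B-cell genes (such as PAX5 and MS4A1) had Ser5P peaks in 100% of DMSO gene and list pairs, while 5 T-cell genes had 20% and 5 myeloid genes and 5 genes of other tissues 0%. In the CDK9 DMSO lists of KARPAS422 the T-cell genes had 50.0%.

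The promoter sequences come first, because they show how compact these control regions are and which letters the family shares. RefSeq promoter windows of GRCh38.p14, from 250 bases before to 50 after the annotated start, were at hand for 69 of the 77 genes. Upstream bases, up to the next gene or to 250 bases, are printed for 4 genes with CDK9 or Ser5P gains, 5′ to 3′ on the strand of the named gene. Capitals mark NRF1 letters (GCGCANGCG or its complement) at MRPL30 (chr2:99181059-99181183, plus strand) and MRPL57 (chr13:21176553-21176657, plus strand), the ETS letters (CCGGAAGT) at MRPL27 (chr17:50373185-50373228, minus strand), and SP1 letters (GGGCGG) at MRPS31 (chr13:40771191-40771440, minus strand).
MRPL30: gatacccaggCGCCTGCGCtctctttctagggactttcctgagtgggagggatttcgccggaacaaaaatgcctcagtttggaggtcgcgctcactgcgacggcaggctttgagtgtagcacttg
MRPL57: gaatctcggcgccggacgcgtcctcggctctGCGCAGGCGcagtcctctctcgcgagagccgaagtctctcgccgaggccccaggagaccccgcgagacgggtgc
MRPL27: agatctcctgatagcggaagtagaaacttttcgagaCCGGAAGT
MRPS31: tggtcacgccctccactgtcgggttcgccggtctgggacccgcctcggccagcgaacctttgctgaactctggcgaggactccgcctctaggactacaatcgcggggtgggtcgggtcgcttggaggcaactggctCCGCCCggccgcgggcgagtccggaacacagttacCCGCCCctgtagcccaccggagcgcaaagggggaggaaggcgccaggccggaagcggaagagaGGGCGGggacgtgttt
At MRPL30, MRPL57 and MRPL27 the printed run is all that separates the gene from the start of MITD1, SKA3 and EME1 on the other strand, whose starts lie 126, 106 and 45 bp away. One peak there cannot be assigned to either gene of such a pair.

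The letters that set the family apart from other promoters were those of YY1 (AAGATGGC, or GCCATCTT on the other strand). They stood in 20 of 69 member promoters (28.99%), against 3.91% of 15843 protein-coding promoters and 6.84% of the 4589 promoters of genes with a Ser5P peak in both DMSO lists. Of the 21 matches, 17 read forward and 15 of these began after the annotated start; the median position over all 21 was 10 bases after it. The 26 bases around such sites are printed for 6 genes that recur below, with the YY1 letters in capitals.
MRPS18B: gcgtacgtcAAGATGGCggcgtctgt
MRPL51: gtaaggcccAAGATGGCtgtcttcgc
MRPS27: gtacgctccAAGATGGCtgcctccat
MRPS24: gcttggcccAAGATGGCggcctccgt
MRPL38: gccggagggAAGATGGCggcgccctg
MRPL50: atctcatcgAAGATGGCggcgcgatc
They lie at chr6:30617854-30617879 (MRPS18B), chr12:6493225-6493250 (MRPL51), chr5:72320208-72320233 (MRPS27), chr7:43869482-43869507 (MRPS24), chr17:75904862-75904887 (MRPL38) and chr9:101398579-101398604 (MRPL50). The letters include ATG; whether they overlap the first codon was not tested. Among the other protein-coding promoters, 626 matches were found, 455 of them forward and 330 forward and after the start, at a median of 11 bases over all matches, so the placement is not particular to this family.

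The other motifs searched, on both strands, differed less. ETS letters (CCGGAAGT) were in 15.94% of member promoters against 6.19% of all and 10.94% of Ser5P promoters, NRF1 letters (GCGCANGCG) in 18.84% against 11.02% and 18.04%, and SIX5/ZNF143 letters (ACTACANNT) in 8.7% against 4.18% and 5.06%. SP1 letters (GGGCGG) were in 60.87% of member promoters, above the 58.5% of all promoters and below the 71.15% of Ser5P promoters. CCAAT was in 28.99% against 36.36% and 38.46%, the E-box CACGTG in 8.7% against 8.88% and 11.61%, and the TATA box TATAAA in 2.9% against 9.63% and 5.84%. The ERR letters TCAAGGTCA and the BCL6 letters TTCCTAGAA were in 0 of the 69 windows, against 0.24% and 0.3% of all. The GC content was 61.46% ± 8.33 (SD over 69 promoters) beside 61.39% ± 11.9 over all promoters. Each motif was searched on its own, so matches of different motifs can overlap.

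**Figure D1:**
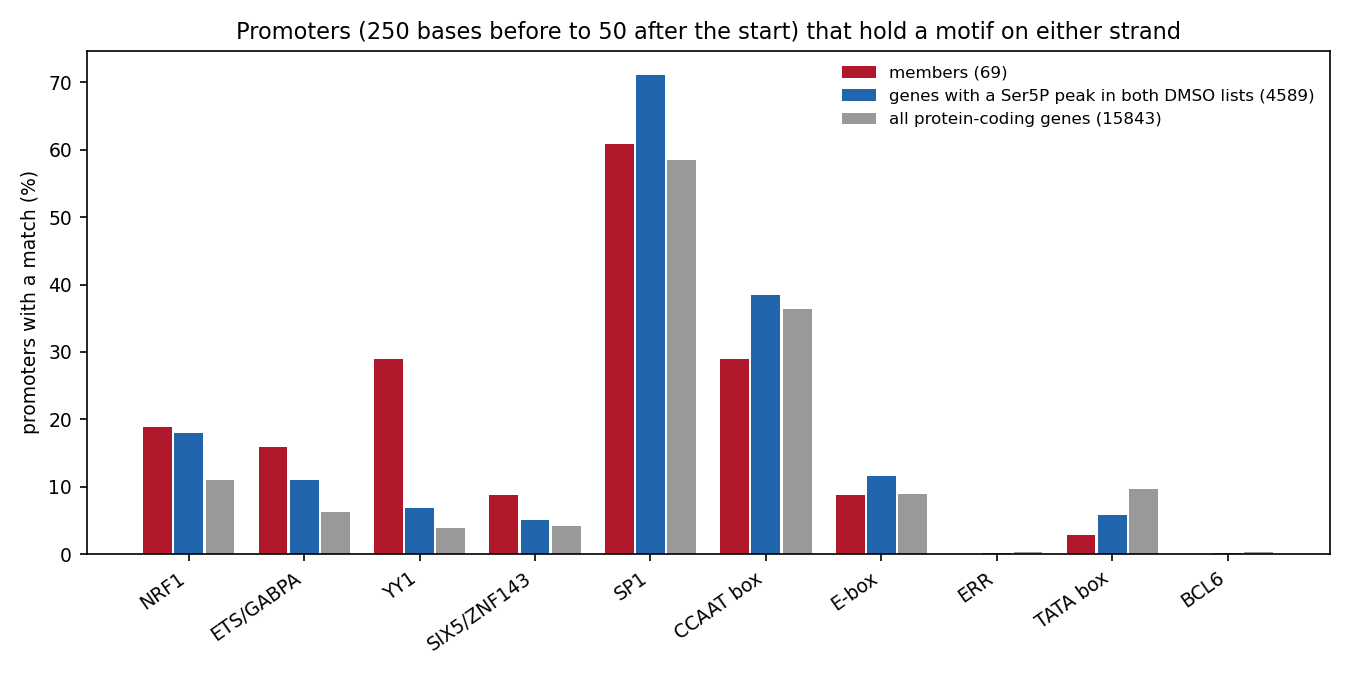
Percent of promoter windows that hold each motif on either strand, for the members (red), genes with a Ser5P peak in both DMSO lists (blue) and all protein-coding genes (grey). The YY1 bars stand farthest apart, at 28.99%, 6.84% and 3.91%.

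Member genes were occupied by CDK9 in SUDHL5 more often after CDK-TCIP1, most of all with ab239364. With this antibody 15 and 35 of the 77 members had a peak in the DMSO lists, and 57 and 59 in the treated lists. Mean occupancy went from 32.5% ± 18.4 to 75.3% ± 1.84 (SD, n = 2 each) of members. It went from 8.70% to 24.1% of all genes and from 24.5% to 64.4% of the genes with a Ser5P peak in both DMSO lists, so the treated shares were higher in all 3 sets of genes. With CST2316S in this line, DMSO lists held 1 and 2 members and treated lists 15 and 13, which was 18.2% ± 1.84 (SD, n = 2) of members in treated lists, while all genes went from 1.75% to 10.7% and Ser5P genes from 6.30% to 31.4%. In KARPAS422 the counts were 23 and 36 in DMSO and 45 and 34 after treatment, so that these groups overlap; all genes went from 16.8% to 23.6% and Ser5P genes from 46.8% to 58.5%.

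**Figure D2:**
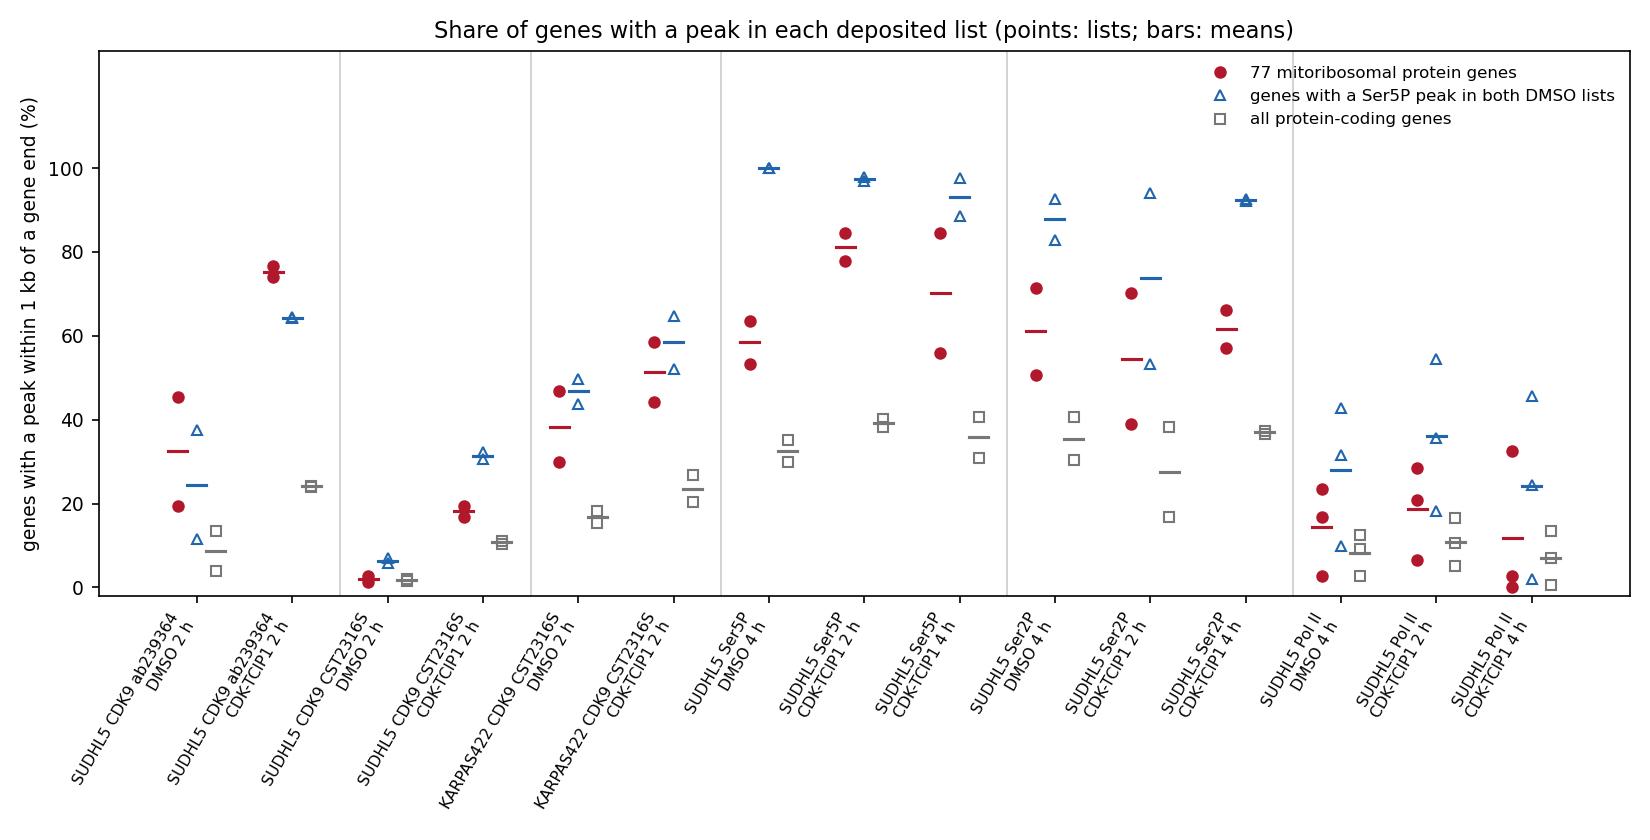
Percent of genes with a peak within 1 kb of a gene end in each list (points) with group means (bars), for the 77 members (red), genes with a Ser5P peak in both DMSO lists (blue) and all protein-coding genes (grey). With ab239364 the treated members lie at 74.0% and 76.6%, above both other sets, and with CST2316S they lie below the Ser5P genes of the same list in both lines.

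The 77 genes differed widely among themselves. MRPS18B, a small-subunit protein gene, was occupied in 31 of 33 lists, and MRPL51, a large-subunit protein gene, in 11 of 12 CDK9 lists like MRPS18B. No member had a peak in all lists, and MRPL23 and MRPL45 had none in any. CDK9 was in all 6 treated lists at MRPL1, MRPL30, MRPL48, MRPL51, MRPS18B and MRPS31. No CDK9 peak in any list was seen at 10 genes: MRPL17, MRPL23, MRPL28, MRPL34, MRPL45, MRPL50, MRPL54, MRPS9, MRPS21 and MRPS26. Ser5P was present in all 6 lists at 31 members and in none at MRPL10, MRPL11, MRPL23, MRPL43 and MRPL45. CDK9 without Ser5P thus occurred at MRPL10, MRPL11 and MRPL43, each with an ab239364 peak in both treated lists.

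**Figure D3:**
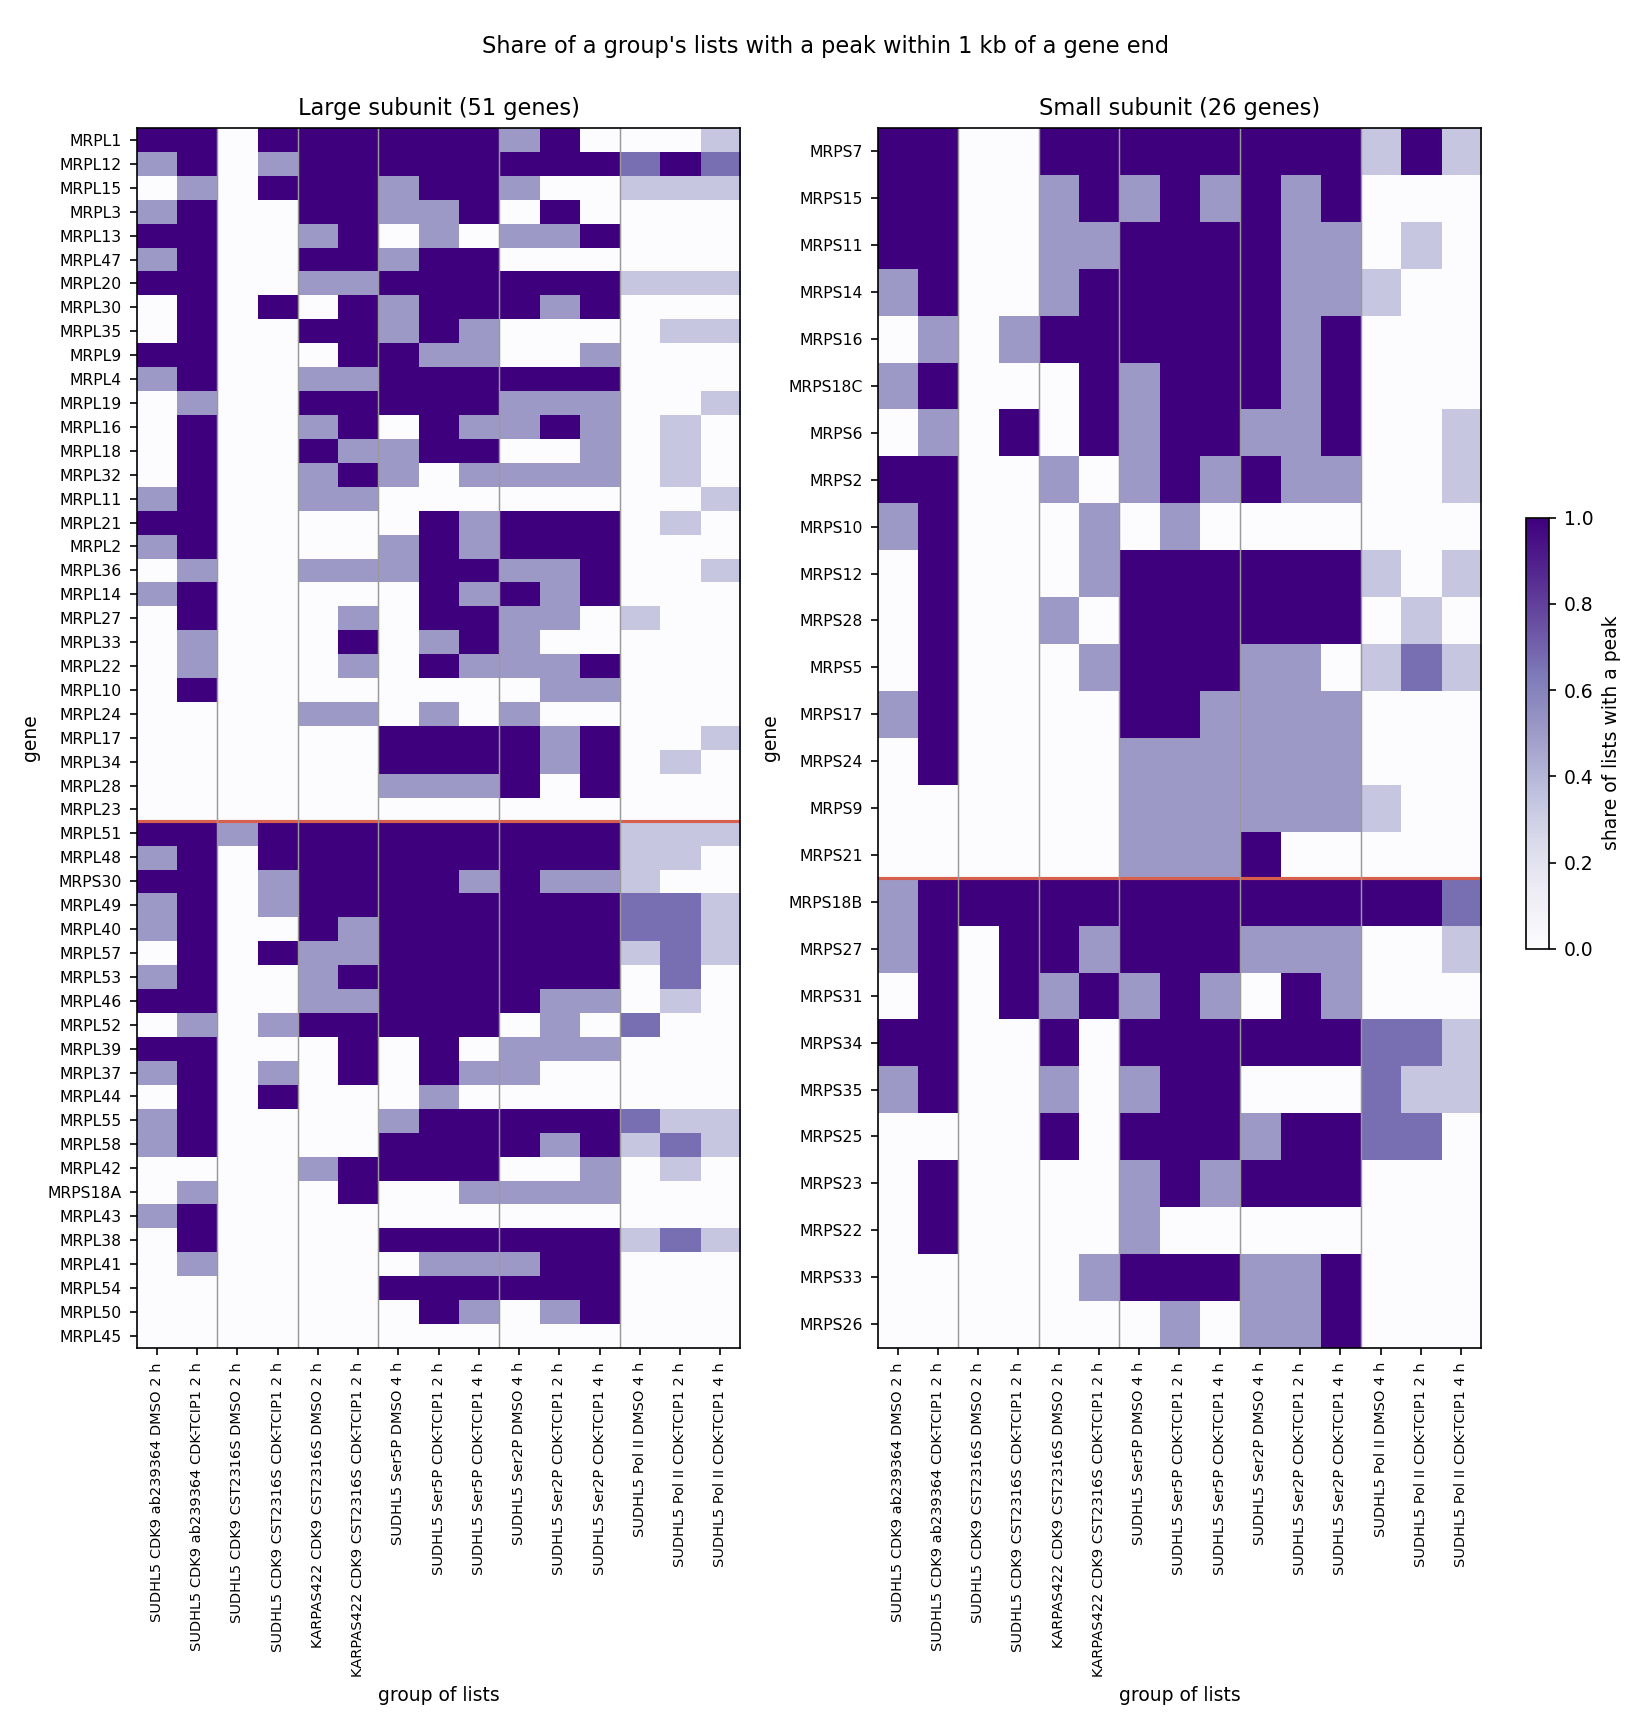
Share of the lists of each group (columns) with a peak at a gene end for each member (rows, from 0 in white to 1 in dark purple). Members above the orange line have a bacterial relative and those below it are found only in mitochondria, each ordered by the number of CDK9 lists, and treated ab239364 lists are dark for most genes of every class.

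The 4 classes did not separate under ab239364. Mean occupancy in treated lists was 74.1% of large-subunit genes with a bacterial relative, 75% of the mitochondria-specific large-subunit genes, 81.2% of small-subunit genes with a bacterial relative and 70.0% of the mitochondria-specific small-subunit genes. With CST2316S in SUDHL5 the 4 values were 12.1%, 27.3%, 9.38% and 30.0%, in the same order. In KARPAS422 the mitochondria-specific small-subunit genes went from 50.0% in DMSO to 30.0% in treated lists, while the other 3 classes had higher treated means of 58.6%, 52.3% and 50.0%. These are descriptions with no test.

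With ab239364, CDK9 was gained at 17 of the 41 members that could be gained (41.5%) and lost at 0 of the 14 that could be lost. The background was 8.77% gained and 0.268% lost of all genes that could be called. Among genes with a Ser5P peak in both DMSO lists the background was 32.9% and the members' count was 5 of 14 (35.7%), a share near that background. MRPL30, whose protein sits in the large subunit, led the gains with the authors' fold enrichment of 14.2 and 12.2 in the treated lists, within the strongest 3.40% and 4.06% of peaks. MRPS31, a small-subunit protein gene and known autoantigen gene, followed with folds of 9 and 8.65, and MRPL16, a core large-subunit protein gene, with 5.30 and 6.28.

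The remaining gains with ab239364 were weaker by rank within their lists. Large-subunit genes were MRPL10, MRPL18, MRPL27, MRPL32, MRPL35, MRPL38, MRPL44 and MRPL57, with mean ranks from the top 44.9% (MRPL27) to 78.1% (MRPL44) of peaks. Small-subunit genes were MRPS5, MRPS12, MRPS22, MRPS23, MRPS24 and MRPS28, from the top 32.0% (MRPS22) to 85.2% (MRPS12). When every list was held to the 915 top peaks of the shortest one, 1 gain was left (0.201% of all genes) and 1 loss appeared, at MRPS34 (22.7% of all genes that could be lost). Without the second DMSO list the gains numbered 38 of 62, beside 15.7% of all genes. At a −log10 q of at least 5, 12 of 44 members were gained (6.18% of all genes), 10 of them among the 17 above. MRPL10, MRPL18, MRPL32, MRPL35, MRPL44, MRPS12 and MRPS24 then dropped out.

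With CST2316S in SUDHL5, CDK9 was gained at 9 of 75 members (12.0%) and lost at 0 of 1. The background was 6.46% gained and 0% lost, and 19.3% among Ser5P genes, where 4 of 32 members (12.5%) were gained, a lower share. The genes were MRPL1, MRPL15, MRPL30, MRPL44, MRPL48, MRPL57, MRPS6, MRPS27 and MRPS31. MRPL30 again ranked first with folds of 11.4 and 7.60, and MRPL1 had 8.06 and 4.52. Held to the 1264 top peaks of every list, 0 members were gained and 1 of 1 was lost, MRPS18B, beside 0.642% gained and 44.1% lost of all genes that could be. At the stricter q (−log10 q of at least 5) 5 members were gained (5.35% of all genes), 4 of them among these 9.

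In KARPAS422, CDK9 was gained at 8 of 38 members (21.1%) and lost at 2 of 20 (10.0%), beside backgrounds of 5.52% and 4.84%. Among Ser5P genes, taken from SUDHL5, the background was 18.5% and 1 of 10 members (10.0%) was gained, again a lower share. The gains were MRPL9, MRPL30, MRPL33, MRPL37, MRPL39, MRPS6, MRPS18A and MRPS18C, again led by MRPL30 with folds of 14.8 and 16.3. The losses were MRPS25 and MRPS34, small-subunit protein genes with DMSO folds of 3.56 and 4.06 and of 3.20 and 4.46. MRPS34 kept its ab239364 peak in SUDHL5 in all 4 lists, with folds of 6.82 and 6.55 in DMSO and 5.59 and 6.09 after treatment. Held to 6689 top peaks per list, 2 of 41 members were gained and 8 of 20 lost, beside 2.23% and 20.1% of all genes. At a −log10 q of at least 5, 12 of 54 were gained and 3 of 17 lost, beside 4.65% and 6.59% of all genes. Of these 12, 6 were among the 8 above, and MRPL33 and MRPL39 dropped out. Leaving out one list changed the gains to 13 of 38 (without treated list 2, 11.4% of all genes) or 14 of 54 (without DMSO list 2, 8.05%), and the losses to 4 of 20 (without treated list 1, 15.4%) or 5 of 36 (without DMSO list 1, 10.6%).

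MRPL30 was the only member gained in all 3 CDK9 sets: its peaks were in all 6 treated lists and in none of the 6 DMSO lists. Other genes shared this pattern. In an exact permutation test with the antibodies permuted separately, the smallest p (0.00926) needs such a full split in every set. It was reached by 1 of 67 members and by 94 of 7743 genes tested. Relative to the MRPL30 start (base 99181184 of chromosome 2) the summits lay between -98 and -40 bp, in the printed run that it shares with MITD1, a gene of cytokinesis. MRPL44, MRPL57 and MRPS31 were gained with both antibodies in SUDHL5, and MRPS6 with CST2316S in both lines. At a −log10 q of at least 5, none of these genes stayed gained in both of its sets. MRPL44 dropped out with ab239364, and MRPL57, MRPS31 and MRPS6 with CST2316S in SUDHL5. The MRPS6 summits lay between 814 and 1017 bp inside the gene, whose annotated start it shares with SLC5A3, a myo-inositol transporter gene. In all, 28 members were gained in at least 1 set. The share of all genes gained in at least 1 set is not given, so this count has no background. Set by set, the members' share gained was above that of all genes. Among Ser5P genes it was near the background with ab239364 and below it with CST2316S in both lines.

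**Figure D4:**
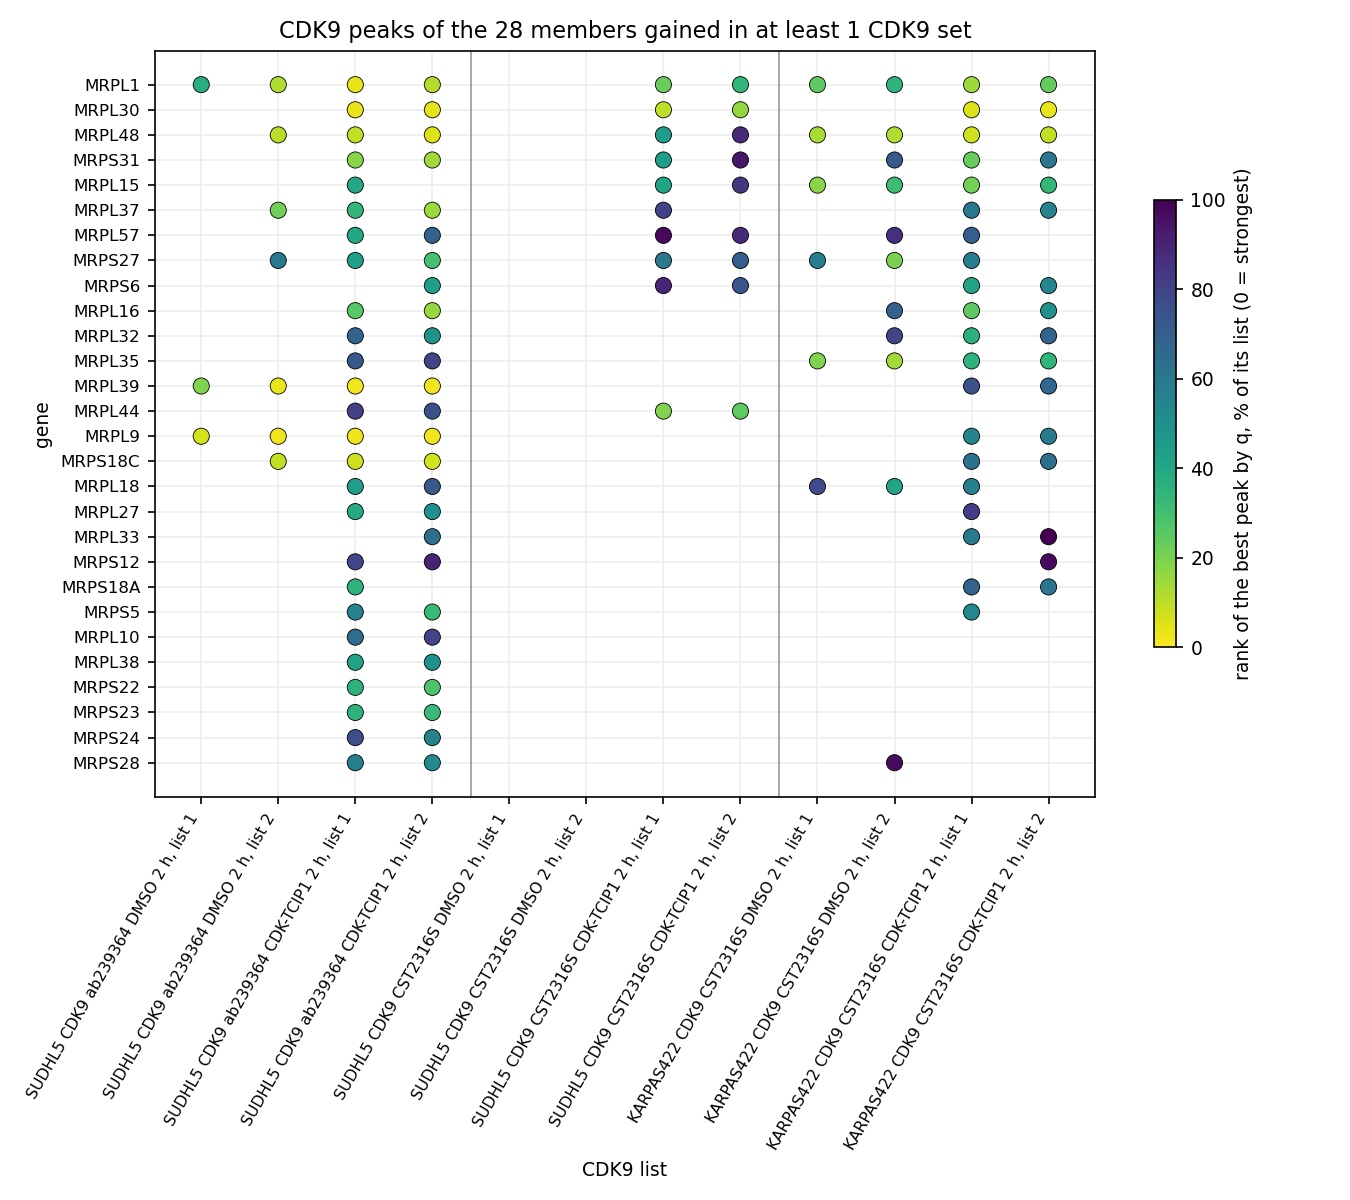
Best CDK9 peak of the 28 members gained in at least 1 CDK9 set (rows) in each of the 12 CDK9 lists (columns), coloured by its rank by q as a percent of its list; a missing point means no peak at a gene end. MRPL30 has 6 points, all in treated lists, with ranks from 3.20% to 16.2%.

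An exact two-sided permutation test over the 12 CDK9 lists asked which genes had a larger share of treated than of DMSO lists with a peak. Labels were permuted within each line, both SUDHL5 antibodies together, which allows 36 relabellings and a smallest p of 0.0556. MRPL30 (share difference 1.0) and MRPS6 (0.8333) reached it, as did 288 of 7743 genes tested. After Benjamini-Hochberg adjustment of these exact permutation p-values over all genes tested, both had p = 0.924, and 0 of 67 members tested passed 0.05. At an unadjusted p under 0.05 the count was also 0. Both counts of 0 were fixed in advance, since the smallest p of this scheme is above 0.05. With the antibodies permuted separately, 3 members had an unadjusted p under 0.05 (271 of all genes). A single set of 2 against 2 lists cannot give an exact p under 0.333, and 3 against 3 none under 0.1.

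For MRPL44 the gene end and the promoter are different places. Its promoter-table start lies 6609 bp inside the annotated gene. The gained CDK9 peaks overlapped the window at the outer gene end, with summits between -6311 and -5030 bp from that start. Not all of these summits lay in the window. When the summit had to lie in it, MRPL44 was gained with neither antibody in SUDHL5. Around the start itself, 19 of 33 lists held a peak, among them all 4 lists of ab239364, all Ser5P and all Ser2P lists, and both treated CST2316S lists but no DMSO list of that antibody. So at its start MRPL44 was gained with CST2316S and not with ab239364. MRPL24 and MRPL36 also have starts over 1 kb inside the gene, with peaks around the start in 14 and 12 lists, against 4 and 13 at the gene ends. With the window placed at the start for all genes in the promoter table, 13 of 35 members were gained with ab239364 (8.70% of all genes). With CST2316S 8 of 67 were gained in SUDHL5 (6.07%) and 8 of 35 in KARPAS422 (5.67%).

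Among the peaks counted at either gene end, those of CDK9 lay at the start. For members with a known strand, the 5′ end was included in 100% of gene and list pairs with a CDK9 peak, in DMSO and after treatment (202 pairs). Of the treated summits, 96.5% fell within 1 kb of the annotated start, at a median of 4.0 bp from it, and the median peak width was 696 bp. Of the Ser5P summits, 84.7% in DMSO and 92.1% in treated lists fell within 1 kb of the start, with medians of -7.0 bp and 14.5 bp. For Ser2P 79.1% and 86.4% did, with a median of -37.5 bp in both, and 8.14% of the DMSO pairs had a Ser2P peak at the 3′ end alone. Only peaks at a gene end were counted, so peaks farther inside the gene could not enter these medians.

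**Figure D5:**
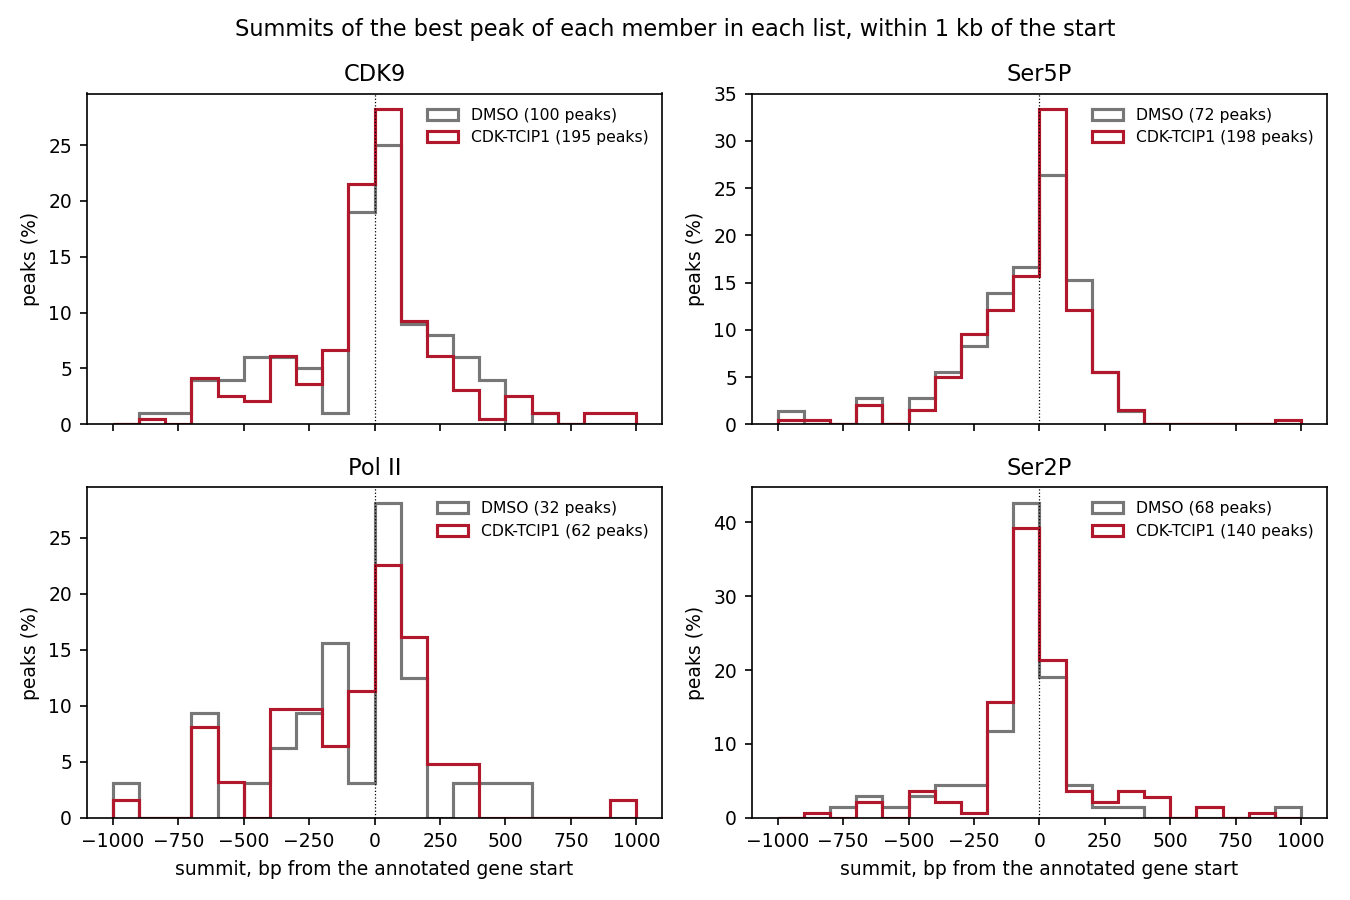
Distance in bp from the annotated gene start to the summit of each member's best peak in each list, as percent of the peaks within 1 kb, for DMSO (grey) and CDK-TCIP1 (red). Only peaks at a gene end enter, so peaks farther inside the gene are not shown. Treated medians of the summits within 1 kb were 4.0 bp for CDK9, 14.5 bp for Ser5P, -4.0 bp for Pol II and -37.5 bp for Ser2P.

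Shared windows limit what a peak says about one gene. Of the 77 members, 52 share a window with another protein-coding gene, and 23 have an opposite-strand start within 1 kb of their own. Of the 28 CDK9-gained members, 21 share a window and 10 have such a head-to-head neighbour. Besides the pairs with MITD1, SKA3 and EME1, these were MRPL18 with TCP1 (210 bp), a chaperonin subunit gene, MRPL32 with PSMA2 (202 bp), a proteasome subunit gene, and MRPS12 with SARS2 (181 bp), the mitochondrial seryl-tRNA synthetase gene. MRPS27 faces PTCD2 (133 bp), MRPL37 faces CYB5RL (137 bp), MRPS18C faces HELQ (175 bp) and MRPL9 faces OAZ3 (527 bp). Other neighbours in the windows of gained members were OSBPL7 and LRRC46 (MRPL10), STX3 (MRPL16), PNLDC1 (MRPL18), RBKS (MRPL33), REEP1 (MRPL35), SSBP3 (MRPL37), TRIM65 (MRPL38), ZNF514 (MRPS5), RSPH9 (MRPS18A), COPB2 (MRPS22), URGCP-MRPS24 (MRPS24) and TPD52 with TPD52-MRPS28 (MRPS28). The lost MRPS34 has EME2, NME3 and MAPK8IP3 within reach. MRPL1, MRPL15, MRPL39, MRPL44, MRPL48, MRPS23, MRPS25 and MRPS31 share no window.

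In the DMSO lists the strongest members differed between the CDK9 sets, which differ in antibody, line or both. With ab239364 they were MRPL9, MRPL21, MRPL13, MRPS15 and MRPL39, with MRPL9 at ranks 64 and 79 and folds of 16.7 and 18.3, and MRPL21 at folds of 16.9 and 15.1. Their treated folds, 14.1 and 12.2 for MRPL9 and 12.6 and 25.4 for MRPL21, lie below and around the DMSO values. With CST2316S in SUDHL5 only MRPS18B had a peak in both DMSO lists. In KARPAS422 the order was MRPS18B, MRPL51, MRPL48, MRPL35 and MRPL15. MRPS18B also led Ser5P, at ranks 33 and 15 with folds of 31.7 and 43.5, ahead of MRPL49, MRPS5, MRPL40 and MRPS25, and it alone had Pol II in all 3 DMSO lists. For Ser2P the order was MRPL49, MRPS18B, MRPL53, MRPL40 and MRPL12. The MRPS18B summits of Ser5P lay between -666 and -626 bp from its start, beside the start of PPP1R10 597 bp away on the other strand, a nuclear phosphatase-targeting gene. MRPL49 likewise starts 49 bp from FAU, which encodes a cytosolic ribosomal protein.

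Ser5P polymerase reached more members 2 h after CDK-TCIP1. It was present at 49 and 41 members in DMSO and at 65 and 60 in the treated lists, 81.2% ± 4.59 (SD, n = 2) after treatment, while all genes went from 32.5% to 39.2%. It was gained at 8 of 21 members (38.1%) and lost at 0 of 34, beside backgrounds of 4.40% and 0.954%. Genes with a Ser5P peak in both DMSO lists cannot serve as a background for gains of Ser5P, since none of them could be gained. Whether the members differ from other genes occupied by polymerase was therefore not tested, at 2 h or at 4 h. The gained genes were MRPL14, MRPL16, MRPL21, MRPL22, MRPL27, MRPL37, MRPL39 and MRPL50, all for large-subunit proteins, as were 11 and 8 of the 21 that could be gained (with and without a bacterial relative), which left 2 small-subunit genes. MRPL27 had Ser5P folds of 5.10 and 9.41 with summits 78 and 47 bp inside the gene, and MRPL39 had 7.18 and 7.34. With equal list lengths 11 of 27 members were gained (4.87% of all genes), at the stricter q 15 of 34 (6.07%). Without one list, 15 of 21 were gained (treated list 2, 6.82% of all genes), 17 of 36 (DMSO list 1, 11.1%) or 14 of 28 (DMSO list 2, 6.85%). The losses numbered 1 of 34 without treated list 2 (3.16% of all genes) and 2 of 49 without DMSO list 2 (3.94%).

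At 4 h Ser5P was present at 43 and 65 members, beside 49 and 41 in DMSO, so that the groups overlap. It was gained at 2 of 21 members, MRPL27 and MRPL33, and lost at 0 of 34, beside backgrounds of 2.25% and 1.54%. The gains numbered 10 of 21 without treated list 1 (9.41% of all genes), the shortest of the 6 Ser5P lists, 7 of 36 without DMSO list 1 (7.09%) and 7 of 28 without DMSO list 2 (3.72%). The losses numbered 3 of 34 without treated list 2 (11.4% of all genes) and 1 of 49 without DMSO list 2 (5.52%), and 4 of 29 members were gained at equal list lengths (3.46%). MRPL27 was the one member gained at both times, with 4 h folds of 4.16 and 8.28.

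Members that gained CDK9 are set beside their Ser5P peaks. Of the 17 members gained with ab239364, 5 (29.4%) had Ser5P in both DMSO lists, 12 (70.6%) in both lists at 2 h and 8 (47.1%) in both at 4 h. Over all 1517 genes gained with ab239364 the shares were higher, at 73.1%, 89.1% and 76.3%. MRPL16 and MRPL27 were gained for both ab239364 CDK9 and Ser5P at 2 h. MRPL21 and MRPL39 gained Ser5P while ab239364 was present in all 4 of their lists, and MRPL50 gained Ser5P with no CDK9 peak in any list. Of the 9 members gained with CST2316S in SUDHL5, 4 (44.4%) had Ser5P in both DMSO lists and 8 (88.9%) in both lists at 2 h, beside 76.1% and 89.6% of all genes gained in that set.

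Ser2P changed at few members. Members with a peak numbered 55 and 39 in DMSO, 30 and 54 at 2 h and 51 and 44 at 4 h, so the groups overlap at both times. At 2 h Ser2P was gained at 2 of 18 members and lost at 2 of 35, beside backgrounds of 0.288% and 6.09%. MRPL3, a core large-subunit protein gene, was gained with folds of 6.52 and 8.67, and MRPS31 with 4.09 and 9.62. MRPL28 was lost, with DMSO folds of 10.8 and 5.48, and so was MRPS21, a small-subunit protein gene whose DMSO peaks lay at its 3′ end. At 4 h MRPL28 had its peak in both lists again, with folds of 7.73 and 7.96.

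At 4 h Ser2P was gained at 1 of 18 members, MRPL50, and lost at 1 of 35, MRPS21, beside backgrounds of 2.76% and 3.65%. The first 2 h list is short, with 6519 peaks against 16170 in the second. Without the first, 5 of 18 members were gained (6.15% of all genes) and 4 of 35 lost (6.66%) at 2 h. Without the second, 13 of 35 members (MRPL30 and MRPS2 among them) were lost, beside 47.1% of all genes. Without the first DMSO list 5 of 38 were gained (2.08% of all genes), and without the second 6 of 55 were lost (17.4%). At 4 h the gains were 7 of 38 without DMSO list 1 (9.29% of all genes), 6 of 18 without treated list 2 (5.5%) and 3 of 22 without DMSO list 2 (4.36%). The 4 h losses were 4 and 3 of 35 without treated list 1 or 2 (9.16% and 7.55% of all genes), 2 of 39 without DMSO list 1 (5.10%) and 7 of 55 without DMSO list 2 (12.3%). With any peak across the gene body or 2 kb beyond its ends counted, 1 member was gained and 4 were lost at 2 h, and 1 and 2 at 4 h. No share over all genes is given for this setting, so these counts are not set against a background.

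Total polymerase peaks were sparse at these genes. Members with a Pol II peak numbered 2, 18 and 13 in DMSO, 5, 22 and 16 at 2 h, and 0, 25 and 2 at 4 h, and the first list of each group was short, with 710, 1214 and 138 peaks. At 2 h, 0 of 54 members were gained and 0 of 1 lost, beside backgrounds of 0.199% and 0.220%. At 4 h, 0 of 54 were gained and 0 of 1 lost, beside 0% and 1.32%. Without the first list of both groups, 1 member was gained and 1 lost at 2 h, and 0 gained and 2 lost at 4 h. At 2 h, 1 was gained without treated list 1 or without DMSO list 2 and 1 was lost without DMSO list 1, and at 4 h, 2 were lost without DMSO list 1. No share over all genes is given beside these Pol II counts without a list, so they are not set against a background. These rules on presence have no test per gene.

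Genes that work with the mitoribosome are given beside it. Of 5 mitoribosomal proteins under other names, GADD45GIP1 was gained with CST2316S in SUDHL5. Of 23 assembly factors, 4 of 15 were gained with ab239364, the methyltransferase gene MRM2, the GTPase genes GTPBP10 and MTG2 and the pseudouridine synthase gene RPUSD4. None of the 23 was gained with CST2316S in SUDHL5, and in KARPAS422 NGRN, DDX28 and ERAL1 were gained (3 of 10) and MRM2, METTL15 and RBFA lost (3 of 9). Of 13 translation factors, GFM2, TSFM and MTRF1 were gained with ab239364 (3 of 9), MTRF1, a release factor gene, also with CST2316S in SUDHL5, and TSFM and MTIF3 in KARPAS422 (2 of 7). Of 5 genes of mitochondrial transcription, MTERF1 was gained in KARPAS422. Ser5P at 2 h was gained at 3 of 4 assembly factors and 3 of 5 translation factors that could be gained, and lost at MRM2. Over all genes that could be called, 8.77%, 6.46% and 5.52% gained CDK9 in the 3 sets in this order, 4.84% lost it in KARPAS422, and 4.40% gained and 0.954% lost Ser5P at 2 h.

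Cytosolic ribosomal protein genes differed from the mitochondrial family in CDK9 occupancy. Their 87 members had peaks in 44.3% of DMSO and 90.2% of treated ab239364 pairs, in 18.4% and 68.4% with CST2316S in SUDHL5, and in 86.2% and 75.3% in KARPAS422. The mitochondrial family had 32.5% and 75.3%, 1.95% and 18.2%, and 38.3% and 51.3%. The difference between the families was not tested. Ser5P was already present at 93.7% of cytosolic pairs in DMSO against 58.4% of mitochondrial ones.

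Occupancy by motif is given as a description over members. With ab239364, treated occupancy was 95.5% at the 11 promoters with ETS letters and 70.7% at the 58 without. With CST2316S in SUDHL5 the order was the other way, at 13.6% and 19.8%. In KARPAS422 promoters with ETS letters were again higher, at 59.09% and 34.48% in DMSO and 63.64% and 50.86% in treated lists. Treated ab239364 occupancy was 25.0% at the 6 promoters with SIX5/ZNF143 letters and 79.4% at the 63 without. With CST2316S in SUDHL5 it was 0% and 20.6%. In KARPAS422 it was 33.33% and 38.89% in DMSO and 41.67% and 53.97% in treated lists. The low share was not particular to CDK9. In DMSO lists Ser5P was at 41.67% and 63.49% of these promoters, and Ser2P at 25.0% and 65.87%. With YY1 letters treated ab239364 occupancy was 75% at 20 promoters, close to 74.5% at the 49 without. In KARPAS422 it was 47.5% and 34.69% in DMSO and 62.5% and 48.98% in treated lists. NRF1 letters stood at 0 of the 18 promoters with CST2316S in both KARPAS422 DMSO lists, beside 16.82% of the 2200 promoters of all such genes. They stood at 3 of 10 member promoters (30.0%) with CST2316S in both treated SUDHL5 lists, beside 14.78% of all such genes, and at 7 of 47 (14.89%) with ab239364 in both treated lists, beside 14.72%.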

How the data were processed

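Peaks were called sample by sample. The submitters' processing notes name MACS2 and Bowtie2 with hg38, besides Trim Galore, FastQC, Picard, SAMtools, deepTools and bedtools; for their versions and controls nothing is stated here. In the deposited lists each peak carries the authors' fold enrichment (a ratio to that sample's own background) and the authors' −log10 p and −log10 q. These values ranked peaks inside one list or set a stricter q. The lists held 286536 peaks, of which 25 on other contigs were left out. The 10 input samples of the 43 have no list here. The files hold no read totals: the depth is unknown, no counting interval can be given, and the peak number is the one total per sample. The file names call CDK9 DMSO samples 0 h; the labels, which say 2 h, were followed, and so was the antibody number of the titles.

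Genes, strands and promoters came from RefSeq tables of GRCh38.p14, the same build as hg38. Overlaps, calls, the permutation test and motif searches ran in Python 3.11.15 with pandas 2.3.3, numpy 2.4.6 and scipy 1.17.1, and peak overlap and calls were tested on simulated data. The test design was 36 exact relabellings with Benjamini-Hochberg adjustment. Alternatives were a stricter q, equal list lengths, a 2.5 kb window, summits, gene bodies for Ser2P, other backgrounds, other permutation schemes and leaving out lists; windows at the promoter table's start, leaving out replicate 1 of both Pol II groups and occupancy by group under other settings were added after seeing the data. The members and lists were chosen with earlier results of these data known. One gene of the lists is not reported here. Named were members gained or lost, the 5 best-ranked in each DMSO group, members with peaks in 0 or all lists, neighbours sharing a window of a CDK9-gained or lost member, and related genes gained or lost for CDK9; the printed sequences, the members without CDK9 or Ser5P and the motif split were chosen after values were seen.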

Additional observations from a re-analysis of the deposited data

Results flagged for a closer look

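MRM2, a mitochondrial ribosomal RNA methyltransferase gene, had opposite CDK9 calls in 2 comparisons. It was gained with ab239364 in SUDHL5 and lost with CST2316S in KARPAS422, so that every list of one set moved against every list of the other. In SUDHL5 it was also lost for Ser5P at 2 h, the line and time of the CDK9 gain. These 2 sets differ in both line and antibody, which cannot be told apart between them. In the CST2316S set of SUDHL5, MRM2 had no CDK9 peak in DMSO and was not called gained. The difference was not tested. No member of the family had opposite calls for one target.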

How the results depend on the processing

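Dropping a list can only keep or raise a count of gains or losses, by construction. Leaving out one list at a time gave, for gains and losses, 18 to 38 and 0 (CDK9 ab239364), 9 to 13 and 0 (CST2316S, SUDHL5), 9 to 14 and 2 to 5 (KARPAS422), 2 to 5 and 2 to 13 (Ser2P, 2 h), 1 to 7 and 2 to 7 (Ser2P, 4 h), 8 to 17 and 0 to 2 (Ser5P, 2 h), 2 to 10 and 0 to 3 (Ser5P, 4 h), 0 to 1 and 0 to 1 (Pol II, 2 h) and 0 and 0 to 2 (Pol II, 4 h). Without replicate 1 of both Pol II groups, 1 member was gained and 1 lost at 2 h, and 0 gained and 2 lost at 4 h. With equal list lengths the gains were 1, 0 and 2 and the losses 1, 1 and 8 in the ab239364, CST2316S SUDHL5 and KARPAS422 sets, 1 member lost Ser2P at 2 h, 2 gained and 0 lost it at 4 h, and 4 gained Ser5P at 4 h. At a −log10 q of at least 5, 12 members were gained with ab239364, 5 with CST2316S in SUDHL5 and 12 in KARPAS422, where 3 were lost. At this q 1 member gained and 1 lost Ser2P at 2 h, and 2 gained and 0 lost it at 4 h. For Ser5P, 15 were gained at 2 h, and 4 were gained and 1 lost at 4 h. Under the other windows the counts stayed within 1.5 times those of the report, except for Ser2P: summits and windows at the promoter start gave 1 loss at 2 h and 0 at 4 h, the 2.5 kb window 2 losses at 4 h, and gene bodies 1 gain and 4 losses at 2 h and 2 losses at 4 h. The cause of these moves was not tested. Counts without a share over all genes do not compare members with other genes. Against genes with Ser5P in both DMSO lists, the members' share gained exceeded the background by 2.79 percentage points with ab239364, from 32.7 against all genes. It differed by -6.80 with CST2316S in SUDHL5, from 5.54, and by -8.49 in KARPAS422, from 15.5, and the SP1 share by -10.3, from 2.37. The other motifs kept their direction against that background.

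Replicate numbers were not used to pair the samples in the main test. The deviations of same-numbered samples correlated between -0.045 and 0.112 across genes, which cannot show that the samples were unpaired. In each Pol II group the first list was the shortest (710, 1214 and 138 peaks) and the second the longest (3229, 4000 and 3196). With the replicate block, 0 members passed an adjusted p of 0.05 and the smallest exact permutation p was 0.125. Without the block it was 0.0556. Both are above 0.05, so no member could pass in either scheme, and these counts cannot show whether the block matters. Read depth is not in these files and limits every absence of a peak.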
